A study of Mus musculus with 12 samples.

Results

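The 10 genes described here encode myosin light chains (Myl1, Myl2, Myl3, Myl4, Myl7 and Myl9) and myosin light chain kinases (Mylk, Mylk2, Mylk3 and Mylk4), 10 of the 20775 genes listed by symbol for each stage. They were chosen by name from among genes whose knockout and control values in these same samples were already known, so their own differences between knockout and Ctrl, and the ratios between them, are given as a description without a test. RNA was sequenced from mice in which exon 1 of Med30, a subunit of the Mediator complex, is flanked by loxP sites. At E10.5, embryonic hearts with Med30 f/f and Tnnt-Cre, a Cre driven by the cardiac troponin T promoter in cardiomyocytes (cKO, n = 3), were compared with hearts of Cre-negative Med30 f/f littermates (Ctrl, n = 3). In 3-month-old mice, 4 weeks after tamoxifen, cardiomyocytes isolated from hearts of Med30 f/f; αMHC-MerCreMer mice (icKO, n = 3) were compared with those of Med30 f/f mice without αMHC-MerCreMer (Ctrl, n = 3). All groups are on a C57BL/6 background, and the labels give both adult groups as treated with tamoxifen. For the adult samples the label of the source reads heart, while the protocol describes isolated cardiomyocytes. The sample labels call the controls wild type, whereas the methods give them as Cre-negative floxed mice. As no Ctrl sample carried Cre, an effect of Cre cannot be told apart from that of the Med30 deletion. The sources used here do not say whether a sample is 1 animal or a pool, so the p values below measure the spread between these samples alone.

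Each muscle myosin consists of heavy chains that carry the motor and of light chains that wrap around the lever arm of each head. Every head binds an essential and a regulatory light chain. In the adult mouse heart, the regulatory chain is MYL2 in ventricular and MYL7 in atrial cardiomyocytes, and the essential chain is MYL3 in ventricular and MYL4 in atrial cardiomyocytes. The names atrial and ventricular follow this adult division, which is not taken to hold in the embryo. MYL4, for example, is also present in the embryonic ventricle. MYL9 is the regulatory chain of smooth muscle, and MYL1 is the essential chain of fast skeletal muscle. Myosin light chain kinases phosphorylate the regulatory chain, and the classical members of the family depend on calmodulin. Mylk encodes the smooth muscle kinase, Mylk2 the skeletal muscle kinase and Mylk3 the cardiac kinase, while Mylk4 is a related gene of the same family expressed in striated muscle. A phosphatase made of protein phosphatase 1 and a myosin-targeting subunit removes the phosphate again.

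Promoter sequence was taken from RefSeq (GRCm38.p6) as the 250 bases upstream of each annotated start. Windows were found for 9 of the 10 genes, in 11 windows. Each was searched on both strands for 5 motifs: the CArG box bound by serum response factor, the MEF2 site, the E-box CANNTG, the GATA site (AGATAA, also with T as first or G as last letter) and TATAAA. No matches of different motifs overlapped. A CArG box was found in the windows of Myl3, Myl7 and Myl9, against 1.47% of the 32851 windows of the same length in the whole table. A MEF2 site was found in the window of Mylk4, against 2.92% of all windows. The E-box was found in 7 of the 11 windows (66.2% of all windows), the GATA site in 5 (26.5%) and TATAAA in 2 (12.4%). Of the 11 windows, 2 are those of Myl2, which lie 7762 and 8227 bases from the nearest GENCODE start of that gene and are therefore not shown. Both hold an E-box, 1 a GATA site and 1 TATAAA. The Myl4 window held none of the 5 motifs. The windows of Myl3 and Mylk4 are shown because these genes were lower in adult icKO cardiomyocytes, that of Myl9 because it was higher, and that of Myl7 because its atrial chain is set against Myl2 in the ratios. Matches are in capitals, and a match is a description of letters, not a binding site. The stretches end before the first base that GENCODE or RefSeq places in a transcript starting there.
Myl3, chr9:110763428-110763645, plus strand: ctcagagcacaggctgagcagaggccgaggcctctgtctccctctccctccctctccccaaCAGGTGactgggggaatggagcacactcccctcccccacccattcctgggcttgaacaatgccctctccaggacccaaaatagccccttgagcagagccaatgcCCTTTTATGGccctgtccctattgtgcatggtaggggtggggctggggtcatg
Mylk4, chr13:32783965-32784214, minus strand: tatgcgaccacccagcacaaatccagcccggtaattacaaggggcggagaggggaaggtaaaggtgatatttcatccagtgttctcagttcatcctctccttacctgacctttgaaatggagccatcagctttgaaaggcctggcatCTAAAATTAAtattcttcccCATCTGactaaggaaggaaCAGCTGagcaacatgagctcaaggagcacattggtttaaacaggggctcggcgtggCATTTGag
Myl9, chr2:156775214-156775419, plus strand: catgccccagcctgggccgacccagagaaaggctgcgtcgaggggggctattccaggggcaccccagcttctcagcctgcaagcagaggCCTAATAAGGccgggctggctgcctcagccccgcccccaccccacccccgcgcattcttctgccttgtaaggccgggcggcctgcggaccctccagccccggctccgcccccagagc
Myl7, chr11:5898783-5899032, minus strand: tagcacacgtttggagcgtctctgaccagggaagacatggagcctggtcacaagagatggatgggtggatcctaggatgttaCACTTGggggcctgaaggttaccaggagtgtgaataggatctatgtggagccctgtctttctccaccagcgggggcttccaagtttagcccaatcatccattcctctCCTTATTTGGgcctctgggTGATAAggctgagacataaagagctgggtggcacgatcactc
In the Myl3, Myl9 and Myl7 stretches, the run of 10 capitals is the CArG box. The run of 10 capitals in the Mylk4 stretch is the MEF2 site, and the 3 shorter runs after it are E-boxes. The shorter run in the Myl3 stretch is an E-box, and those in the Myl7 stretch are an E-box and, nearer the start, a GATA site. The Myl3 stretch lies within the longer gene model that GENCODE gives for Myl3, upstream of the RefSeq start.

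Expression is given as RPKM, the read count divided by gene length and library depth, which allows levels of different genes to be set side by side within a sample. From the spacing of low values, depth was estimated at 13.7 M to 20.1 M reads in the E10.5 samples and 11.99 M to 17.6 M in the adult samples (M, mega). Med30, the deleted gene, lay between 10.6 and 13.3 RPKM in E10.5 Ctrl and between 1.004 and 2.02 in cKO hearts, and between 7.45 and 7.66 in adult Ctrl and 1.82 and 3.81 in icKO cardiomyocytes. The cardiomyocyte markers Tnnt2, Tnnc1, Actc1 and Actn2 were abundant at both stages. The 10 cardiomyocyte markers summed to between 19510 and 20890 RPKM in adult Ctrl and between 9531 and 11310 in icKO cells, but did not move together. Myh6, Actc1, Tnni3 and Ryr2 were called lower, whereas Tnnc1 (mean 1602 and 2085 RPKM), Actn2 (626 and 1139) and Nkx2-5 (23.5 and 39.1) were higher in every icKO sample than in any Ctrl sample, without being called. Such a position above Ctrl was found in 62.0% of all genes tested at 4 weeks. In bulk samples, fewer cells of a type and less RNA per cell cannot be told apart. In each stage a limma fit on log2(RPKM + 0.1) covered every gene whose 6 samples averaged above 1 RPKM, and calls required both a Benjamini-Hochberg adjusted p below 0.05 and a log2 fold change larger than 1 in size. On this scale the change of genes with low values is understated. The 20 most abundant genes held between 24.8% and 25.4% of summed RPKM in adult Ctrl and between 11.5% and 13.1% in icKO samples, and over all genes tested the median log2 fold change at 4 weeks was 0.57, which median-ratio scaling between samples moved to 0.003. At E10.5 it was −0.13, and −0.01 after this scaling. Values after median-ratio scaling are therefore given for the members in adult cells beside those of the RPKM as deposited. After this scaling, Tnnc1, Nkx2-5 and Actn2 had log2 fold changes of −0.19, 0.18 and 0.29 at 4 weeks. Of the 10 cardiomyocyte markers, 6 were then called lower and 0 higher.

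In E10.5 hearts, the light chains other than Myl1 were among the most abundant transcripts. Myl2 ranked first or second among all genes in each of the 6 samples, Myl7, Myl4 and Myl3 lay within the first 15, and Myl9 between ranks 14 and 32, while Myl1 ranked between 180 and 2658. By mean RPKM in Ctrl the order was Myl2 (3105 ± 931, SD, n = 3), Myl7 (1065 ± 120), Myl4 (842 ± 117), Myl3 (649 ± 111), Myl9 (381 ± 48.3), Mylk3 (64.2 ± 4.09), Myl1 (61.5 ± 51.2), Mylk (0.694 ± 0.124), Mylk4 (0.0447 ± 0.0394) and Mylk2 (0.0113 ± 0.0196). The Ctrl samples of Myl4 and Myl3 overlapped, as did those of Mylk3 and Myl1, and those of Mylk4 and Mylk2. In adult Ctrl cardiomyocytes the order was Myl2 (7516 ± 525), Myl3 (2999 ± 53.4), Mylk3 (115 ± 2.56), Mylk4 (49.8 ± 12.4), Myl1 (13.5 ± 4.59), Myl9 (3.15 ± 0.772), Myl4 (1.37 ± 0.274), Myl7 (0.471 ± 0.0710), Mylk (0.335 ± 0.121) and Mylk2 (0.0130 ± 0.0113). Here the samples of Myl7 and Mylk overlapped and those of all other neighbors in this order did not. The atrial chains Myl4 and Myl7 and the smooth muscle chain Myl9 were thus abundant in the E10.5 heart and near the bottom of the adult list, whereas Mylk4 was at most 0.088 RPKM in any E10.5 sample and at least 36.7 in adult Ctrl. The stages were normalized apart and come from a whole heart and from isolated cells, so these levels are set side by side without a test.

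**Figure D1:**
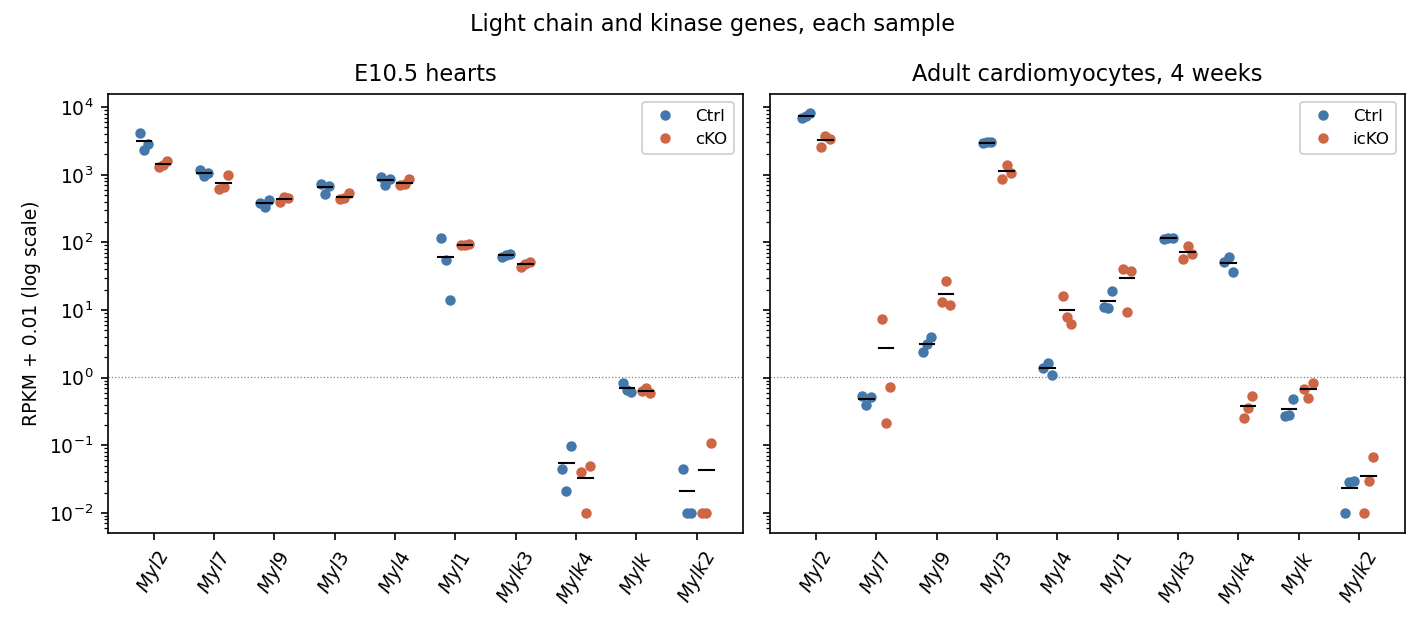
RPKM + 0.01 on a log axis for each of the 10 genes in every sample, with Ctrl in blue, knockout in orange, a black line at the mean and a dotted line at the mean RPKM of 1 used as filter. In adult cells, Mylk4 lay between 36.7 and 61.3 RPKM in Ctrl and between 0.241 and 0.532 in icKO samples, and Myl4 and Myl9 icKO points lay above all Ctrl points.

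At E10.5, 7 of the 10 genes had a mean RPKM above 1 and entered the fit, while Mylk, Mylk2 and Mylk4 did not. Of the 7, 0 were called lower or higher by limma (2 had a log2 fold change below 0 at an unadjusted p under 0.05 and 0 above it), against 0.542% of the 10885 genes tested that were called lower and 0.239% called higher. Over all genes these were 59 lower and 26 higher, and 41 and 35 after median-ratio scaling. These member counts come from the contrast that was known when the genes were chosen, and nothing is read from them. Of these members, 5 had a log2 fold change below 0 and 2 above 0, with a median of −0.44 against −0.13 over all genes tested. In Myl2 and Mylk3 the highest cKO value was below the lowest Ctrl value, which was so for 22.6% of all genes tested. The reverse held in 0 of the 7 members and in 6.50% of all genes.

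Myl2, the ventricular regulatory chain (chromosome 5 of GRCm38, 122100951 to 122113472), had 4132, 2317 and 2867 RPKM in the Ctrl hearts, replicates 1 to 3 in order here and below, against 1319, 1392 and 1597 in the cKO hearts. The cKO samples lay close together and below all Ctrl samples, of which replicate 1 stood highest. The log2 fold change was −1.07 (standard error, SE, 0.305), and it was −0.95 (SE 0.204) after median-ratio scaling. Without Ctrl replicate 1 it was −0.85. Myl2 overlaps Ccdc63 on the opposite strand, and reads of the pair could be told apart only if counting used strand. Whether it did is not given in the sources used here.

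Myl7, the atrial regulatory chain (chromosome 11, 5896637 to 5898782), had 1192, 953 and 1050 RPKM in Ctrl and 618, 661 and 1000 in cKO hearts. The groups overlapped, since cKO replicate 3 lay within the Ctrl range and the other 2 cKO samples below it. The log2 fold change was −0.52 (SE 0.246). Myl9, the smooth muscle regulatory chain (chromosome 2, 156775420 to 156781658), had 380, 333 and 429 RPKM in Ctrl and 400, 464 and 451 in cKO hearts, with overlap and a difference of 0.21 on the log2 scale (SE 0.173). Markers of smooth muscle and mural cells summed to between 543 and 656 RPKM in Ctrl and between 746 and 906 in cKO hearts, with 2 of 9 tested markers higher and Myh11, a defining marker, at 0.113 to 0.134 in Ctrl and 0.208 to 0.741 in cKO hearts. Most of that sum was Acta2, at 346 to 378 RPKM in Ctrl and 422 to 502 in cKO hearts. Of the 9 tested, 8 had a log2 fold change above 0, with Smtn at 0.001, and 1 below it, Rgs5 at −0.24. The part of smooth muscle and mural cells in these Myl9 values was not tested.

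Of the essential chains, Myl3 (chromosome 9, 110741861 to 110769798) had 738, 525 and 684 RPKM in Ctrl and 437, 458 and 531 in cKO hearts. The highest cKO sample lay just above the lowest Ctrl sample, for a log2 fold change of −0.44 (SE 0.200). Myl4 (chromosome 11, 104550663 to 104595753) had 942, 714 and 870 RPKM in Ctrl and 708, 723 and 859 in cKO hearts, so the groups covered nearly the same range. Its log2 fold change was −0.14 (SE 0.210), was −0.02 after median-ratio scaling and turned to 0.04 with scaling without the 20 most abundant genes. Myl1 (chromosome 1, 66924295 to 66945404) had 116, 54.9 and 13.9 RPKM in Ctrl and 91.8, 91.0 and 95.6 in cKO hearts. The Ctrl samples spanned the cKO values, and the log2 fold change of 1.06 (SE 0.582) was 0.22 without Ctrl replicate 3. The 10 other skeletal muscle markers summed to between 28.9 and 38.2 RPKM in Ctrl and to between 12.3 and 22.2 in cKO hearts, and of the 4 tested Tnnt3 and Tnni2 were called lower.

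Among the kinases at E10.5, Mylk3 (chromosome 8, 85324303 to 85386345) had 59.9, 64.9 and 68.0 RPKM in Ctrl and 42.9, 47.6 and 51.5 in cKO hearts. The groups were apart, the cKO samples being the lower, with a log2 fold change of −0.44 (SE 0.117). Mylk, the smooth muscle kinase (chromosome 16, 34745210 to 35002420), lay between 0.603 and 0.836 RPKM in Ctrl and between 0.577 and 0.682 in cKO hearts, under the filter with a mean of 0.663. Mylk2 (chromosome 2, 152911352 to 152923068) and Mylk4 (chromosome 13, 32700834 to 32783954) were at or near 0 in both groups. An estimated 0 to 4 reads per sample were behind Mylk2 and 0 to 8 behind Mylk4, where 3 reads correspond to 0.0507 to 0.0740 RPKM of Mylk2 and to 0.0268 to 0.0392 of Mylk4. A difference in these kinases was not detectable at this depth.

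In adult cardiomyocytes, 8 of the 10 genes passed the filter, Mylk4 through its Ctrl samples and Myl7 through icKO replicate 1. Of these 8, limma called 3 lower (Myl2, Myl3 and Mylk4), against 8.45% of the 9517 genes tested, and 2 higher (Myl4 and Myl9), against 28.0%. After median-ratio scaling Mylk3 was called lower as well, which gave 4 lower against 16.3% of all genes and 2 higher against 10.8%. As at E10.5, nothing is read from these counts, because the contrast was known when the genes were chosen. Of these members, 4 had a log2 fold change below 0 and 4 above 0, with a median of 0.09 against 0.57 over all genes tested. After median-ratio scaling the median of the members was −0.47. In 4 members every icKO sample lay below every Ctrl sample, against 18.9% of all genes tested, and in 2 every icKO sample lay above, against 62.0%.

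Myl2 had 7011, 7478 and 8059 RPKM in Ctrl cells against 2555, 3763 and 3421 in icKO cells. Each icKO sample was below each Ctrl sample, and the icKO mean was 0.432 of the Ctrl mean. Its log2 fold change was −1.23 (SE 0.141), and −1.79 (SE 0.153) after median-ratio scaling. With quantile normalization it was −0.05 and not called. That method gives genes of the same rank the same value in every sample. As Myl2 was at rank 1 or 2 in each adult sample, it can show little of a fall in Myl2. Despite the lower level, Myl2 still ranked first or second among all genes in each icKO sample, with 1.123% to 1.58% of summed RPKM against 3.06% to 3.57% in Ctrl.

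Myl3, its ventricular partner as essential chain, had 2938, 3028 and 3033 RPKM in Ctrl and 879, 1401 and 1075 in icKO cells. The Ctrl samples agreed closely and all icKO samples lay below them, at 0.373 of the Ctrl mean. This gave a log2 fold change of −1.45 (SE 0.149), and −2.02 (SE 0.154) after median-ratio scaling. With quantile normalization it was −0.25 and not called, with the same limit, as Myl3 was at ranks 7 to 13 in the adult samples. Myl3 overlaps Pth1r on the opposite strand.

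The atrial essential chain Myl4 had 1.39, 1.63 and 1.08 RPKM in Ctrl and 16.3, 7.87 and 6.31 in icKO cells, from an estimated 93.6 reads or fewer in Ctrl and 248 to 902 in icKO samples. All icKO samples lay above all Ctrl samples, with replicate 1 the highest. On the log2 scale the difference was 2.70 (SE 0.314), or 2.16 (SE 0.307) after median-ratio scaling, and 2.30 without icKO replicate 1. The level in icKO cells remained far from the 714 to 942 RPKM of E10.5 Ctrl hearts.

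The atrial regulatory chain Myl7 did not follow the same pattern across samples. It had 0.518, 0.389 and 0.505 RPKM in Ctrl and 7.30, 0.205 and 0.715 in icKO cells. A single icKO sample, replicate 1, stood apart with an estimated 73.0 reads, while the other samples had 2 to 5.1 reads. Its log2 fold change of 1.11 (SE 0.948), or 0.64 (SE 0.945) after median-ratio scaling, rests on this sample, and without it Myl7 did not pass the filter of mean RPKM above 1. The gap between replicate 1 and the other icKO samples was wider in Myl7 than in Myl4, where replicates 2 and 3 also exceeded Ctrl.

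Genes listed as atrial or ventricular markers are given beside these values. Sln, a defining atrial gene, was at 0 to 0.114 RPKM in both groups, Nr2f1 at 0 to 0.199, and Bmp10 at 0 in all but icKO replicate 1, where it was 0.223. Dkk3 was at 0 to 0.106 RPKM in Ctrl and 0.179 to 0.46 in icKO cells, highest in icKO replicate 1. Nr2f2 was at 0.143 to 0.432 in Ctrl and 0.308 to 0.607 in icKO cells, with overlap. Of the 8 atrial genes, 3 were tested. Nppa rose by 2.81 on the log2 scale (limma adjusted p = 5.3e-06), while Kcnj3 fell by 3.21 (limma adjusted p = 4.2e-06) and Stard10 fell by 1.67 (limma adjusted p = 2.6e-05). The summed level of the list, 125 to 197 RPKM in Ctrl and 693 to 1181 in icKO cells, was mostly Nppa. The paper treats ANF, the product of Nppa, as a fetal gene marker of cardiac stress in icKO hearts. It also reports less KCNJ3 protein in icKO cardiomyocytes. Whether Nppa or Kcnj3 marks atrial cells in these samples was not tested. Of the 5 ventricular genes, Pln fell by 4.56 (limma adjusted p = 1.3e-07) and Irx3 fell by 1.63 (limma adjusted p = 0.00014). Irx4 (−0.80) and Irx5 (−0.18, with overlap) were tested and not called, and Irx4 was called lower after median-ratio scaling. Hey2 was under the filter and not tested, at 0.984 to 1.09 RPKM in Ctrl and 0.526 to 0.979 in icKO cells. The list summed to 1497 to 1519 RPKM in Ctrl and 61.7 to 93.1 in icKO cells, mostly Pln. The part of atrial cells in the Myl4 and Myl7 values was not tested.

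Myl9 had 2.38, 3.15 and 3.92 RPKM in Ctrl and 12.96, 26.7 and 11.7 in icKO cells. The groups did not overlap, icKO replicate 2 was the highest, and the log2 fold change was 2.33 (SE 0.298), or 1.78 (SE 0.297) after median-ratio scaling. The 12 smooth muscle and mural markers summed to 66.4 to 89.2 RPKM in Ctrl and 256 to 420 in icKO cells, and 4 of the 7 tested were called higher and 1 lower, or 3 and 1 after median-ratio scaling. In icKO cells most of that sum was Cnn1, at 180 to 330 RPKM against 0.086 to 0.267 in Ctrl. In Ctrl cells the largest part was Acta2. Besides Cnn1, Tagln, Mcam and Pdgfrb were called higher and Smtn lower, Pdgfrb with the RPKM as deposited alone. Tagln was at 0.609 to 1.72 RPKM in Ctrl and 2.68 to 5.48 in icKO cells, and Mcam at 0.765 to 1.62 and 17.4 to 40.5. Smtn was at 13.3 to 16.2 and 2.31 to 4.46. Of other defining markers, Myh11 was at 0.276 to 0.391 in Ctrl and 0.621 to 1.20 in icKO cells, Acta2 at 31.9 to 63.5 and 27.6 to 42.7, and Lmod1 at 0.021 to 0.224 over both groups. Fibroblast markers summed to 5.34 to 9.11 RPKM in Ctrl and 61.6 to 88.7 in icKO cells, with 5 of 5 tested called higher, 4 after median-ratio scaling, and the defining fibroblast gene Pdgfra at 0.240 to 0.284 and 0.402 to 1.64. In icKO replicate 2, where Myl9 was highest, both sums were the lowest of the 3 icKO samples. Acta2 in that sample, at 37.0 RPKM, lay between its values in icKO replicates 1 and 3. Endothelial markers summed to 10.45 to 28.5 RPKM in Ctrl and 26.5 to 48.2 in icKO cells, and macrophage markers to 2.83 to 4.51 and 6.72 to 9.59. The part of these cells in the Myl9 values was not tested.

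Myl1 had 10.9, 10.8 and 18.8 RPKM in Ctrl and 40.7, 9.49 and 37.9 in icKO cells. The icKO samples fell on both sides of the Ctrl range, replicate 2 below it and replicates 1 and 3 above. On the log2 scale the difference was 0.91 (SE 0.498), 0.34 (SE 0.516) after median-ratio scaling, and between 0.54 without icKO replicate 1 and 1.59 without icKO replicate 2. The skeletal muscle markers summed to 1.84 to 3.79 RPKM in Ctrl and 11.1 to 15.4 in icKO cells, and both tested markers were called higher. Tnnt3, the fast skeletal troponin T, had 0.059 to 0.234 RPKM in Ctrl and 6.45 to 9.33 in icKO cells and rose by 5.27 on the log2 scale (limma adjusted p = 1.1e-06). Neb rose by 1.65 (limma adjusted p = 0.012), with overlapping groups, and was not called after median-ratio scaling. The light chain gene Mylpf, not tested, lay at 0.176 to 0.456 RPKM in Ctrl and 1.48 to 1.74 in icKO cells. Other markers of the list went the opposite way. Tnni2 had 2.40, 0.772 and 1.25 RPKM in Ctrl and 0.625, 0.271 and 0.252 in icKO cells. It was under the filter as deposited and called lower after median-ratio scaling. Actn3, not tested, lay at 0.105 to 0.138 in Ctrl and 0.041 to 0.104 in icKO cells. Myog was at 0 in all samples, and Myh1, Myh2 and Myh4 were at 0.039 or below. The part of skeletal muscle genes in the Myl1 values was not tested.

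Of all members, Mylk4 differed most between adult groups, with 51.4, 61.3 and 36.7 RPKM in Ctrl and 0.241, 0.349 and 0.532 in icKO cells. Each icKO sample had an estimated 22.8 to 35.5 reads, above the 3 reads taken as the floor, so the low level itself was measured. The icKO mean was 0.00751 of the Ctrl mean. On the log2(RPKM + 0.1) scale the difference was −6.73 (SE 0.247), and −7.23 (SE 0.252) after median-ratio scaling. By rank among all genes, Mylk4 moved from between 503 and 832 in Ctrl to between 10464 and 11564 in icKO samples. The cardiac kinase Mylk3 had 113, 114 and 118 RPKM in Ctrl and 57.5, 87.5 and 68.0 in icKO cells, again with no overlap. The log2 fold change was −0.72 (SE 0.135) with RPKM as deposited and −1.28 (SE 0.138) after median-ratio scaling, so that its call as lower depends on the scaling.

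Mylk had 0.262, 0.269 and 0.475 RPKM in adult Ctrl and 0.674, 0.489 and 0.833 in icKO cells, with a mean of 0.5003 under the filter and an estimated 27.1 to 89.4 reads. The icKO samples lay above the Ctrl samples, by a narrow gap between 0.475 and 0.489. Mylk2 was at most 0.057 RPKM, an estimated 0 to 2 reads, in every adult sample. A difference in Mylk2 was not detectable at this depth.

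**Figure D2:**
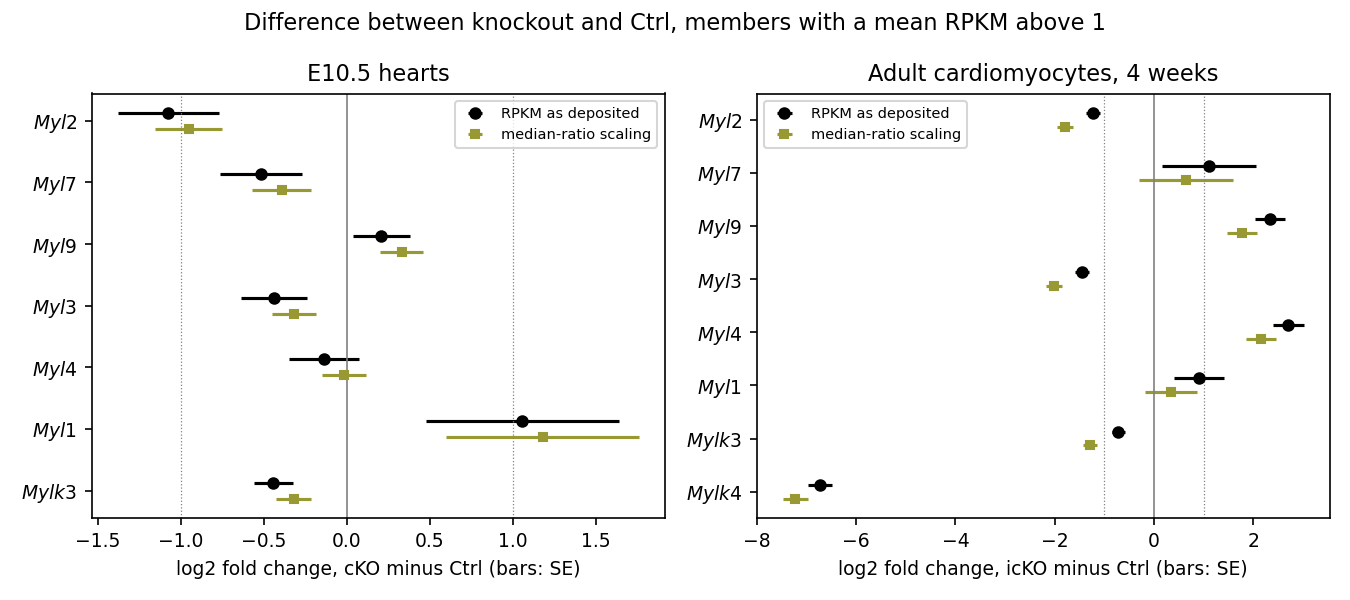
Log2 fold change, knockout minus Ctrl, with its SE as bar, for the members with a mean RPKM above 1, with RPKM as deposited (black) and after median-ratio scaling (yellow-green), with dotted lines at −1 and 1. At 4 weeks the scaling moved each value down by about the median of all genes, and Mylk3 passed −1 only after it. The x axes of the panels differ.

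Ratios of genes within a sample do not change when a whole sample is rescaled. The ratio of the atrial to the ventricular regulatory chain, Myl7 to Myl2, was 0.289, 0.411 and 0.366 in E10.5 Ctrl and 0.469, 0.475 and 0.626 in cKO hearts. All cKO ratios lay above all Ctrl ratios, and the log2 difference was 0.56 (SE 0.203). It turned to −0.12 with quantile normalization, which unlike a rescaling of whole samples changes ratios. That method can show little of a fall in Myl2, which was at rank 1 or 2 in every E10.5 sample. The ratio of the atrial to the ventricular essential chain, Myl4 to Myl3, was 1.28, 1.36 and 1.27 in Ctrl and 1.62, 1.58 and 1.62 in cKO hearts. Again the groups did not overlap, and the spread within each was small, with a log2 difference of 0.30 (SE 0.0332). In both pairs the ventricular member was the lower of the 2 relative to Ctrl, and neither atrial member was above its Ctrl mean in RPKM as deposited, although Myl4 turned with other scalings as given above. Of the 5 ventricular marker genes, all tested at E10.5, Irx4, Hey2 and Pln fell by 1.32, 1.32 and 1.61 on the log2 scale in cKO hearts (limma adjusted p = 0.0017, 0.00046 and 0.0017). The other two were not called and overlapped between groups, with log2 fold changes of −0.50 for Irx3 and 0.14 for Irx5. Of the 8 genes of the atrial list given above for adult cells, 6 were tested and 0 called by limma. Among the 6 tested, cKO samples lay below Ctrl without overlap in Nppa (−0.45), Dkk3 (−0.77) and Kcnj3 (−1.17) and above it in Bmp10 (0.50). Sln, named above as a defining atrial gene, was at 0 in every E10.5 sample. Whether the other genes of the list mark the atria at this stage was not tested. The chains are named by their chamber in the adult heart, and the chamber their transcripts came from at E10.5 was not tested. The part of these tissues in the ratios was not tested.

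In adult cardiomyocytes, Myl4 to Myl3 was 0.000472, 0.000537 and 0.000356 in Ctrl and 0.0185, 0.00562 and 0.00587 in icKO cells. The groups were far apart with a log2 difference of 4.15 (SE 0.582), 3.59 without icKO replicate 1. Even so Myl4 stayed at no more than 0.0185 of Myl3 in any icKO sample. Myl7 to Myl2 was 7.4e-05, 5.2e-05 and 6.3e-05 in Ctrl and 0.00286, 5.4e-05 and 0.000209 in icKO cells. This ratio overlapped between groups, with icKO replicate 2 inside the Ctrl range, and its log2 difference of 2.34 (SE 1.53) was 0.88 without icKO replicate 1.

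The ratio of Myl1 to Myl3 was 0.157, 0.104 and 0.0203 in E10.5 Ctrl against 0.180 to 0.210 in cKO hearts, and 0.00356 to 0.00620 in adult Ctrl against 0.00677 to 0.0463 in icKO cells. The groups did not overlap at either stage, although the gap to the nearest Ctrl sample was narrow. The log2 differences were 1.495 (SE 0.901, 0.61 without Ctrl replicate 3) and 2.36 (SE 0.899, 3.21 without icKO replicate 2). Between kinases, Mylk4 to Mylk3 was 0.454, 0.537 and 0.311 in adult Ctrl and 0.00419, 0.00399 and 0.00782 in icKO cells, a log2 difference of −6.01 (SE 0.348). Mylk to Mylk3 was 0.00232, 0.00236 and 0.00402 in adult Ctrl and 0.0117, 0.00559 and 0.0123 in icKO cells, a log2 difference of 1.54 (SE 0.392). Both kinase ratios overlapped between groups at E10.5.

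**Figure D3:**
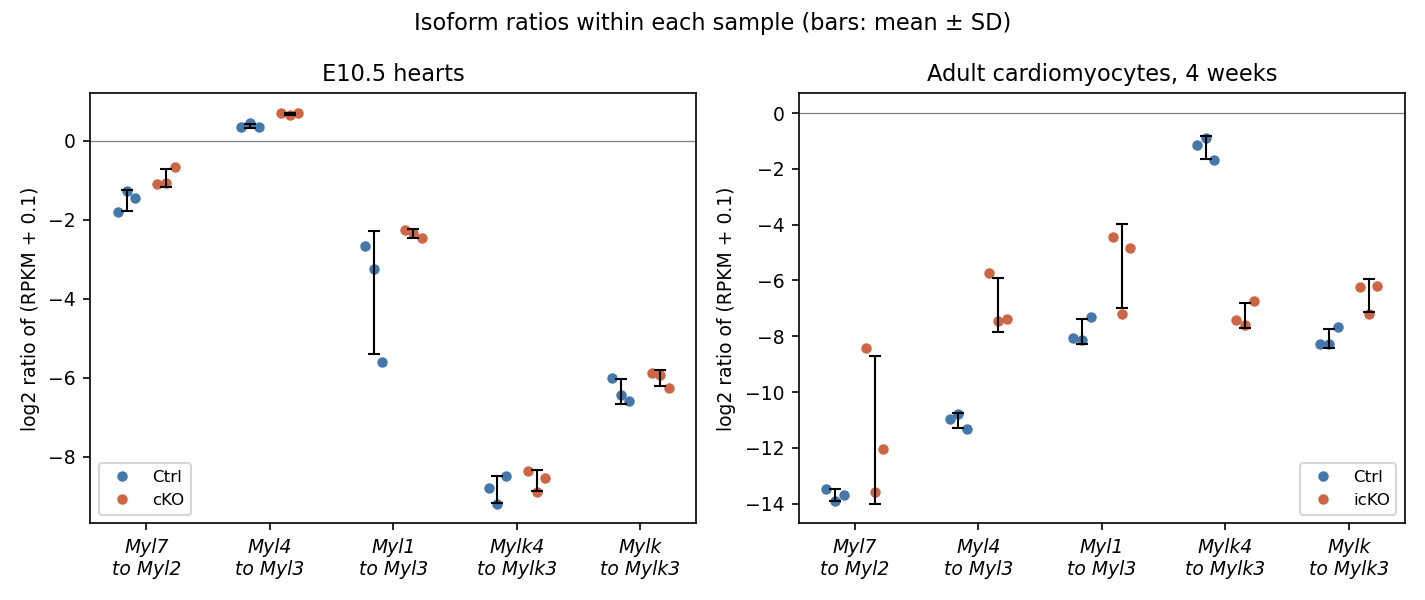
Log2 of the ratio of (RPKM + 0.1) of 2 genes within each sample, with Ctrl in blue, knockout in orange and black bars at the mean ± SD (n = 3). At E10.5 Myl4 to Myl3 separated cKO from Ctrl with little spread, and at 4 weeks Mylk4 to Mylk3 lay lower and Myl4 to Myl3 higher in all icKO samples, while Myl7 to Myl2 overlapped.

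As a share of the summed RPKM of all regulatory chains (Myl2, Myl7, Myl9, Myl12a, Myl12b, Mylpf and Myl10), Myl2 made up 65.9% ± 4.29 (SD, n = 3) in E10.5 Ctrl and 52.1% ± 1.99 in cKO hearts. Myl9 made up 8.38% ± 1.65 and 15.97% ± 1.77, and Myl7 made up 23.3% ± 2.69 and 27.1% ± 3.53. The shares of Myl2 and Myl9 did not overlap between groups, whereas those of Myl7 did. The summed RPKM of the regulatory chains was 4664 ± 1085 in Ctrl and 2769 ± 389 in cKO hearts. In adult cells Myl2 made up 97.2% ± 0.390 of the regulatory chains in Ctrl and 90.1% ± 1.11 in icKO cells. Most of the rest was Myl12a, a regulatory chain of non-muscle myosin, at 2.48% ± 0.280 in Ctrl and 8.24% ± 0.886 in icKO cells, and reads of Myl12a and its close copy Myl12b may be split with uncertainty. Myl12a overlaps Myl12b on the same strand and Myom1 on the opposite strand. Its own log2 fold change was 0.61, or 0.05 after median-ratio scaling, and it was called with neither. The class as a whole summed to 7734 ± 517 RPKM in Ctrl and 3600 ± 665 in icKO cells.

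Among the essential chains (Myl1, Myl3, Myl4, Myl6 and Myl6b), the share of Myl4 was 49.4% ± 2.01 in E10.5 Ctrl and 50.4% ± 0.681 in cKO hearts, and that of Myl3 was 38.0% ± 1.66 and 31.4% ± 0.601. The shares of Myl4 overlapped between groups, while that of Myl3 was lower in every cKO sample. In adult cells Myl3 made up 99.1% ± 0.152 of the essential chains in Ctrl and 90.2% ± 3.39 in icKO cells. Myl6, the essential chain of smooth muscle and non-muscle myosin, was the next largest part in icKO cells, at 0.347% ± 0.0225 in Ctrl and 6.18% ± 1.18 in icKO cells. Myl4 reached 0.887% ± 0.623. The essential chains summed to 3027 ± 56.8 RPKM in Ctrl and 1233 ± 245 in icKO cells.

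**Figure D4:**
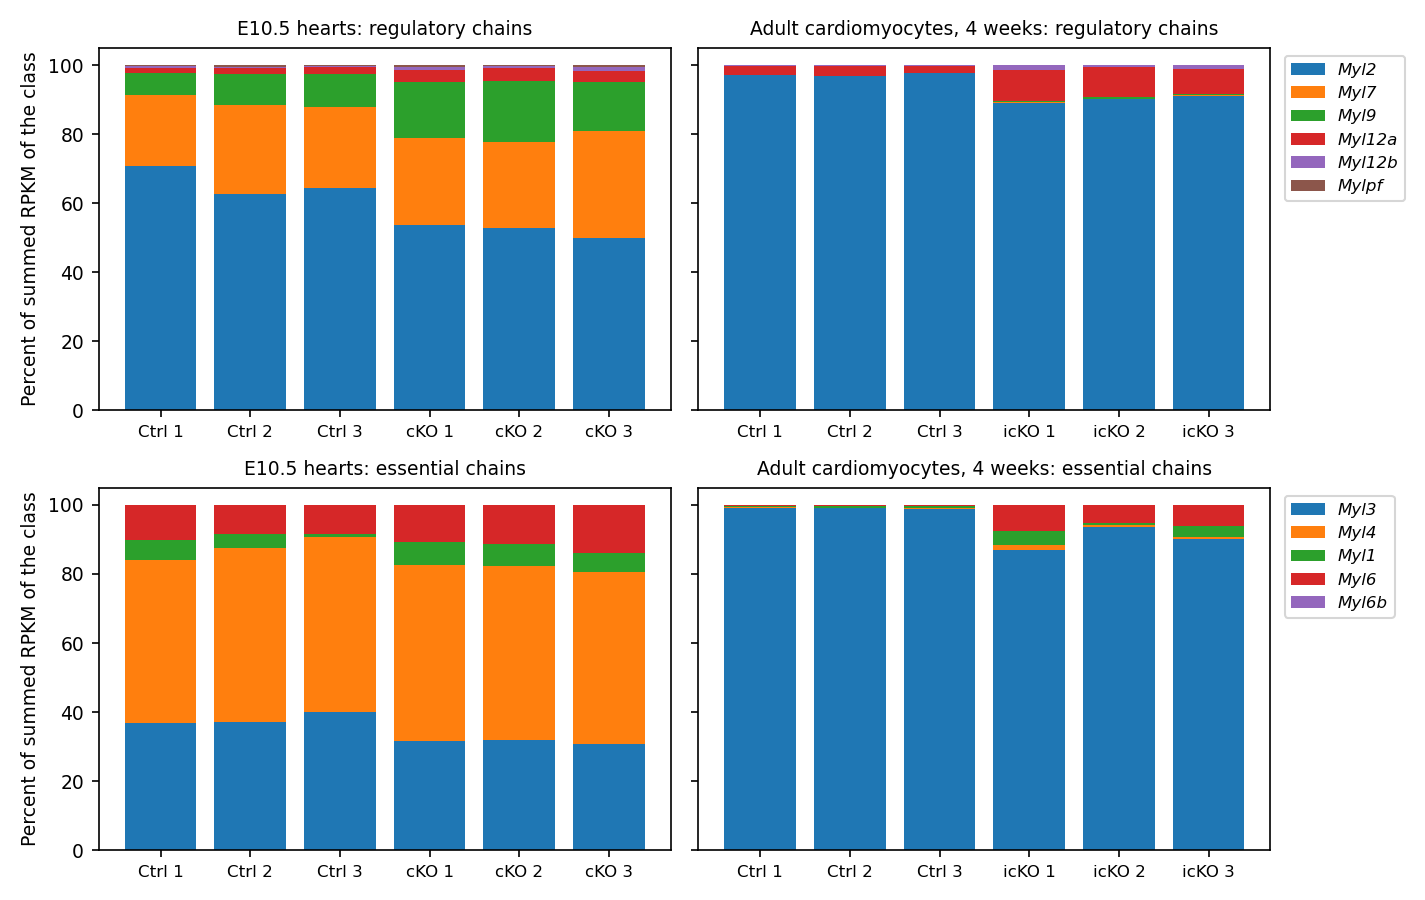
Stacked bars of the percent of summed RPKM that each gene contributed within the regulatory (top) and essential (bottom) light chains of every sample. At E10.5 the Myl2 and Myl3 parts were smaller in each cKO sample, and at 4 weeks Myl2 and Myl3 still made up most of their class in icKO samples beside larger Myl12a and Myl6 parts.

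The other genes of the pathway were taken from 4 lists, whole and not picked for how they moved: other light chains, the light chain phosphatase and its inhibitors, calmodulin and other kinases that act on the regulatory chain, and myosin heavy chains. At E10.5, 31 of these 41 genes were tested. Both genes called lower by limma were heavy chains, and 0 were called higher (5 of 31 had an unadjusted p under 0.05 in each direction). Myh7, the slow cardiac heavy chain, had 609, 410 and 589 RPKM in Ctrl and 179, 161 and 242 in cKO hearts, a difference of −1.47 on the log2 scale (SE 0.217) at a limma adjusted p = 0.0162. The call was lost with no RPKM filter and without Ctrl replicate 3, cKO replicate 1 or cKO replicate 2. Myh7b, a related heavy chain, had 5.16, 7.01 and 7.50 RPKM in Ctrl and 2.44, 2.15 and 2.90 in cKO hearts, a difference of −1.35 (SE 0.182) at a limma adjusted p = 0.0108, a call lost without Ctrl replicate 3. For Myh6, the other cardiac heavy chain, the groups overlapped, with a difference of −0.07 (SE 0.171) on the log2 scale. The median log2 fold change of the 31 genes was −0.03, against −0.13 over all genes tested.

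In adult cells 28 of the 41 genes were tested, of which 5 were called lower and 11 higher, with a median log2 fold change of 0.72 against 0.57 over all genes tested. Of all genes tested, 8.45% were called lower and 28.0% higher. After median-ratio scaling 6 were lower and 8 higher, beside 16.3% and 10.8% of all genes. The called genes named below kept their calls after this scaling unless stated. All 3 cardiac heavy chains fell. Myh6 had 4522, 4389 and 4232 RPKM in Ctrl and 336, 446 and 538 in icKO cells, a fall by 3.34 on the log2 scale (limma adjusted p = 3.6e-07), Myh7 fell by 2.12 (limma adjusted p = 0.00043) and Myh7b fell by 4.25 (limma adjusted p = 8.5e-07). The non-muscle heavy chains Myh9 and Myh10 rose by 2.74 and 2.83 (limma adjusted p = 7.4e-06 and 2.0e-07). Their light chain partner Myl6 had 9.54, 10.7 and 11.2 RPKM in Ctrl and 75.6, 77.0 and 70.6 in icKO cells, and rose by 2.82 (SE 0.0879, limma adjusted p = 1.0e-07). Of the 4 other light chains tested, Myl6 was the 1 called higher with the RPKM as deposited, and Myl6b was called lower after median-ratio scaling alone.

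Calm2 and Calm3 encode the same calmodulin protein, which activates the calmodulin-dependent kinases. They rose by 2.05 and 1.52 on the log2 scale in icKO cells (limma adjusted p = 5.2e-07 and 1.8e-06). Calm2 for example had 18.9, 18.4 and 20.7 RPKM in Ctrl and 86.8, 85.8 and 69.5 in icKO cells. After median-ratio scaling Calm3 had a log2 fold change of 0.96 and was not called. The calmodulin and kinase list as a whole had 6 of 12 tested genes called higher and 1 lower, against 28.0% and 8.45% of all genes tested. After median-ratio scaling these were 4 and 1, against 10.8% and 16.3%. Dapk3, Cdc42bpa and Cdc42bpb, kinases related to light chain phosphorylation in non-muscle cells, were among the higher with the RPKM as deposited. Cdc42bpa was not called after median-ratio scaling. Rhoa, Rock1 and Rock2 had log2 fold changes of 0.72, 0.71 and 0.67, against the median of 0.57 over all genes tested, and were not called.

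Of the 6 phosphatase genes tested in adult cells, Ppp1r12a, which encodes the myosin-targeting subunit MYPT1, had 11.9, 11.9 and 11.8 RPKM in Ctrl and 49.7, 48.4 and 40.2 in icKO cells, and rose by 1.94 (SE 0.0960, limma adjusted p = 4.8e-07). Ppp1r12c rose by 1.04 (limma adjusted p = 5.7e-05), but had a log2 fold change of 0.48 after median-ratio scaling and lay under 1 without Ctrl replicate 3 (0.96) or icKO replicate 2 (0.93). Ppp1r12b, which encodes MYPT2, the subunit of the heart, had 45.9 ± 3.30 RPKM in Ctrl and 44.9 ± 5.73 in icKO cells (SD, n = 3), with overlapping groups, and the catalytic subunit gene Ppp1cb had a log2 fold change of 0.45. After median-ratio scaling the log2 fold changes of Ppp1r12b and Ppp1cb were −0.60 and −0.12, neither called. The inhibitor gene Ppp1r14c had 25.6, 33.7 and 50.8 RPKM in Ctrl and 10.3, 22.9 and 12.999 in icKO cells and fell, at a limma adjusted p = 0.0043.

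**Figure D5:**
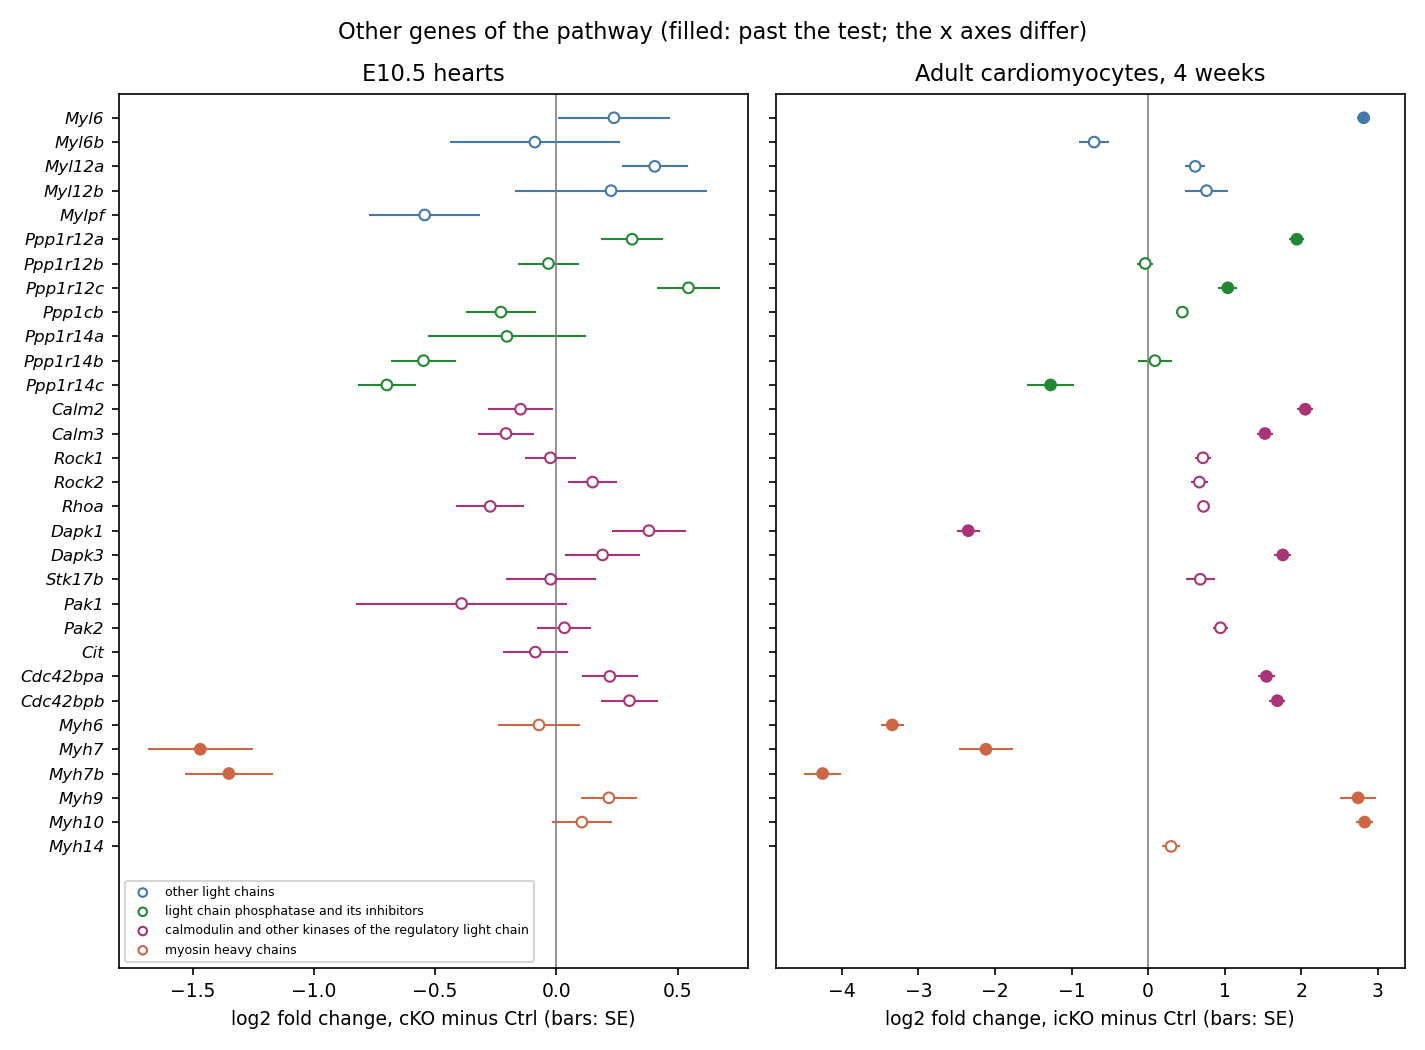
Log2 fold change, knockout minus Ctrl, with its SE as bar, for genes of the 4 related lists with a mean RPKM above 1 that are reported here; filled points passed the limma test and the log2 fold change of 1. At E10.5 Myh7 and Myh7b are filled, and at 4 weeks the filled points below 0 include Myh6 and Dapk1 and those above 0 include Myl6 and Myh10.

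Genes whose values across the 6 samples of a stage were most like those of Myl2, Myl7 and Mylk3 were found by the root mean square distance between centered log2 values. For Myl2 they were Adprhl1, Mybphl and Rrad at E10.5 (distances 0.0844, 0.133 and 0.134) and Dhrs11, Mtus1 and Psme1 at 4 weeks (0.0542, 0.0782 and 0.0797). Adprhl1 and Mybphl are known as genes of heart muscle. Adprhl1 had a mean of 23.0 RPKM in Ctrl and 9.99 in cKO hearts. For Mylk3 they included S1pr1 and Maf1 at E10.5 (0.0510 and 0.0519) and Kcnj12, Rab28 and Csrp3 at 4 weeks (0.0637 to 0.0675). For Myl7 at E10.5 they were Yeats4, Noa1 and Mrpl48 (0.0445 to 0.0555). At 4 weeks, where Myl7 stood apart in icKO replicate 1, the nearest were Mest, Igf2 and Cdkn1c, known as imprinted genes, at larger distances of 0.615, 0.701 and 0.931. With 6 samples per stage, such neighbors are a description of these samples.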

How the data were processed

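RNA-seq of 12 samples in 4 groups of 3 was analyzed. Per the labels and methods, the authors mapped reads to GRCm38, and the deposited tables hold RPKM per gene. Submitters' processing notes name cutadapt 2.6, STAR 2.5.3a, HOMER 4.11.1 and DESeq2 1.12.4 without roles. The authors' deposited log2 fold changes, FDR and mean columns were not used. Depth was estimated from the spacing of values up to 12 reads (66.1% to 72.5% within 0.1 of a whole read, 20% by chance). The floor of 3 reads covers counting error only.

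Each stage was fitted with limma 3.58.1 (R 4.3.3) on log2(RPKM + 0.1), mean RPKM above 1, eBayes with trend, two-sided, Benjamini-Hochberg over all genes tested, after tests on simulated data. Ratios are of (RPKM + 0.1) on the log2 scale. Members, lists and the shares of each chain class were chosen with earlier results of these data known. All members, the called genes of the related lists and the 3 nearest genes are named by rule, with marker genes, save items not reported here, which stay in the counts. Coordinates are GENCODE M21 (GRCm38), and protein sequences were not used here. Samples were not treated as paired by replicate number in the main fit. After the group means were taken out, samples of the same number correlated at −0.07 to 0.153, which does not exclude a pairing. Alternatives are given in the closing section.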

Additional observations from a re-analysis of the deposited data

Results flagged for a closer look

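Dapk1, which encodes a calmodulin-dependent kinase able to phosphorylate the regulatory light chain, lay in opposite directions at the 2 stages. At E10.5 it had 4.63, 4.46 and 3.70 RPKM in Ctrl and 5.47, 6.42 and 4.87 in cKO hearts, with a log2 fold change of 0.38 that was not called. At 4 weeks it had 8.78, 9.43 and 7.78 RPKM in Ctrl and 1.35, 1.95 and 1.59 in icKO cells, a difference of −2.35 on the log2 scale (SE 0.151) at a limma adjusted p = 1.6e-06, which lay between 9.8e-07 and 2.3e-05 over its alternatives. Every knockout sample lay above Ctrl at the first stage and below it at the second. Dapk1 was flagged among members and related genes by this very rule, so nothing is read from it. Of all genes tested, 6.50% lay above Ctrl in this way at E10.5 and 18.9% below it at 4 weeks. The difference between the stages was not tested.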

How the results depend on the processing

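With a mean RPKM above 5, 1 member (Myl2) was called lower at E10.5 rather than 0, and 1 of the related genes rather than 2 (Myh7b was below the filter). With no RPKM filter it was also 1 (Myh7 was not called). Leaving out 1 replicate gave 0 to 2 related genes lower at E10.5, with 0 without Ctrl replicate 3, and 2 to 4 members higher at 4 weeks, the 4 without icKO replicate 2, when Myl1 (1.59) and Myl7 (2.11) were called. The replicate block left the member counts at 0 and 0 at E10.5 and at 3 and 2 at 4 weeks, and changed no other call of members or related genes. Quantile normalization brought Myl2 to −0.05 and Myl3 to −0.25 at 4 weeks, neither called, turned the Myl7 to Myl2 log2 difference at E10.5 to −0.12, and gave 0.36 for Myl4 to Myl3 at E10.5, 2.52 at 4 weeks and 0.64 for Myl1 to Myl3 at 4 weeks. It gives genes of the same rank the same value in every sample, so it can show little change in genes at the top ranks. For Mylk4 to Mylk3, a pseudocount of 0.01 gave −0.30 at E10.5 and a pseudocount of 1 gave −4.47 at 4 weeks. For Mylk to Mylk3 at 4 weeks, a pseudocount of 1 gave 1.03. Between samples of a stage, depth limits Mylk2 and, at E10.5, Mylk4. Over all genes, the 59 lower and 26 higher calls at E10.5 became 36 and 12 with a pseudocount of 1, 35 and 17 with no filter, 34 and 9 with a mean RPKM above 5, 38 and 19 with eBayes without a trend, 38 and 35 with quantile normalization, 36 and 48 with samples scaled on all but the 20 top genes, and 18 to 102 lower and 9 to 36 higher leaving out 1 replicate (102 without cKO replicate 3, 18 without Ctrl replicate 3). At 4 weeks the 804 and 2668 became 1374 and 1197 with quantile normalization and 454 and 1687 with a mean RPKM above 5. The causes of the shifts given here were not tested.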
